A study of Mus musculus with 23 samples.

Results

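The B cell and lymph node genes described here are 10 genes of the 26869 in the expression table. Of these, 7 are expressed mainly by B cells (Cd79a, Ms4a1, Igkc, Cd22, Cr2, Fcer2a and Cxcr5), and 3 belong to the stroma and vessels of lymph nodes (Ccl19, Ccl21a and Glycam1). They were chosen from measured values in these same tumors, namely the lower Igkc and Cd22 in aPD1-treated tumors of responder lines and the Glycam1 counts of individual tumors. Their levels are therefore given as a description. The difference between responder and non-responder lines under aPD1 is given with no p, and nothing is read from the number of members called in it.

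The tumors were subcutaneous MC38 tumors, a mouse colon carcinoma line of C57BL/6J origin, grown from 500000 injected cells in female F1 hosts aged 8 to 12 weeks. Each host was a cross of C57BL/6J with a strain of the Collaborative Cross, which consists of inbred mouse strains that mix the genomes of diverse founders. The responder (R) lines were CC001F1 (CC001/UncJ parent), CC002F1 (CC002/UncJ) and CC075F1 (CC075/UncJ). The non-responder (NR) lines were CC036F1 (CC036/UncJ), CC079F1 (CC079/TauUncJ) and CC080F1 (CC080/TauUncJ). The sample labels do not give this class, which was taken from the paper's description of the lines. At a size of 75 to 110 mm3 mice were given 200 µg of the PD-1 antibody 29F.1A12, called aPD1, or of the isotype antibody 2A3, and tumors were harvested after 48 h. Every host was immunocompetent and carried the same tumor cell line, so groups differed by host line and antibody. The 12 groups of line and antibody held 2 tumors each, apart from the aPD1 group of CC080F1 with 1 tumor here. This gave 6 R isotype, 6 R aPD1, 6 NR isotype and 5 NR aPD1 tumors. Values are normalized counts, that is expected counts per gene divided by a size factor for depth. Library totals ran from 14494000 to 71868300 counts, with 17 libraries of at least 30000000 counts and 6 below. As a check of the label, Shisal2b, a marker of MC38 cells in the study, was present in all 23 tumors at 460.1 to 1138 normalized counts.

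B cells recognize antigen through a surface immunoglobulin that signals through the Cd79a and Cd79b chains. In lymph nodes they enter through high endothelial venules, vessels whose sulfated glycoproteins, Glycam1 among them, hold lymphocytes from the blood. Stromal cells of the node make Ccl19 and Ccl21a, which guide cells that carry Ccr7, while Cxcl13 draws cells that carry Cxcr5 into follicles. Cr2, the complement receptor CD21, and Fcer2a, the low-affinity IgE receptor CD23, are markers of mature B cells. Ms4a1 encodes CD20, Igkc the constant part of the kappa light chain, and Cd22 an inhibitory lectin of the B cell receptor.

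All 10 members were highest in the same 3 tumors: CC002F1 isotype replicate 1 (an R line), CC079F1 aPD1 replicate 1 and CC080F1 aPD1 replicate 1 (both NR lines). Glycam1 made the sharpest split, with 383, 287 and 289 normalized counts in these 3 tumors, in that order. It was at 0 in each of the other 20 tumors, where 3 counts would have been a normalized count of 1.58 to 7.70. Glycam1 was thus present in 1 isotype and 2 aPD1 tumors, in 1 R and 2 NR lines. The 3 libraries were of ordinary depth, with totals of 38036100, 44238900 and 39305200 counts against a median of 42327600. Over the 16405 genes whose normalized counts averaged 10 or more, these were the 3 highest tumors for 47 genes, or 0.286%. The members were picked with this pattern in view, so their own count of 10 of 10 adds no support to it.

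**Figure D1:**
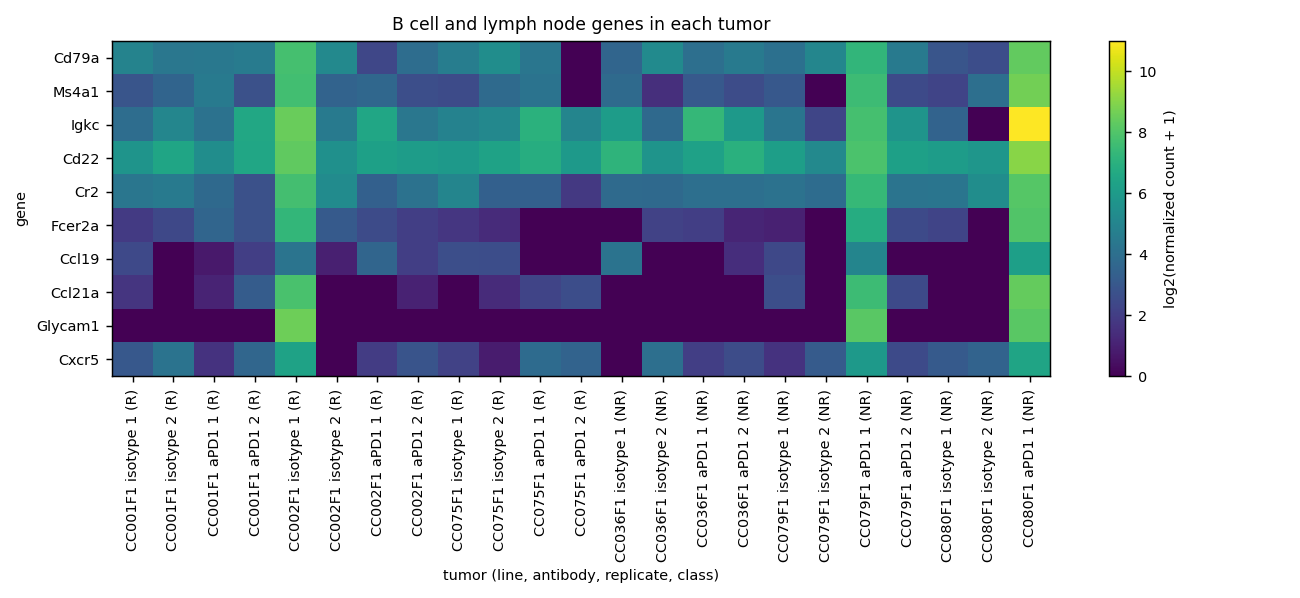
Level of the 10 members in each of the 23 tumors as log2(normalized count + 1), with tumors on the horizontal axis named by line, antibody, replicate and class, and genes on the vertical axis. CC002F1 isotype replicate 1, CC079F1 aPD1 replicate 1 and CC080F1 aPD1 replicate 1 have the highest levels in every row. For Ccl19, CC002F1 isotype replicate 1 is about level with CC036F1 isotype replicate 1. Glycam1 is at 0 in the other 20 tumors.

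The second member of the node's stroma, Ccl21a, followed the same split. It had 232, 186 and 334 normalized counts in CC002F1 isotype replicate 1, CC079F1 aPD1 replicate 1 and CC080F1 aPD1 replicate 1. In the other 20 tumors it ran from 0 to 8.18 and was at 0 in 11 of them, so the 2 sets did not overlap. Mouse genomes carry further near-identical copies of Ccl21a, among which the authors' counting may split reads, so its level is less certain than its contrast between tumors. Ccl19, which binds the same receptor, was far lower at 17.5, 31.5 and 72.4 normalized counts. The highest of the other 20 tumors, CC036F1 isotype replicate 1, had 17.4, so CC002F1 isotype replicate 1 was not distinct from it for Ccl19.

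Among the B cell members, Ms4a1 had 204, 183 and 401 normalized counts in CC002F1 isotype replicate 1, CC079F1 aPD1 replicate 1 and CC080F1 aPD1 replicate 1. The other 20 tumors ranged from 0 to 21.5 with a median of 6.88. Fcer2a had 154, 112 and 260 in the same order, against 0 to 11.1 with a median of 2.87. Neither gene overlapped between the 3 tumors and the rest, and the lowest of the 3 was 8.50 times the highest other tumor for Ms4a1 and 10.1 times for Fcer2a.

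Cd79a, the signaling chain of the B cell receptor, had 218, 153 and 329 normalized counts in these tumors. Its other values ran from 0 to 41.4 with a median of 19.7. Cr2 had 208, 166 and 271, against 2.57 to 41.0 with a median of 15.05. Cxcr5, the receptor of Cxcl13, was lower at 80.2, 61.0 and 85.2, against 0 to 17.2. For these 3 genes the 3 tumors were again apart from the rest, by factors of 3.68, 4.05 and 3.55 between the lowest of them and the highest other tumor.

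Cd22 and Cr2 were above 0 in every tumor, and Igkc and Cd79a were at 0 in 1 each. Cd22 had 313, 236 and 529 normalized counts in CC002F1 isotype replicate 1, CC079F1 aPD1 replicate 1 and CC080F1 aPD1 replicate 1. The other 20 tumors had 35.7 to 141 with a median of 69.2. Igkc had 354, 218 and 2049 in the same order, against 0 to 160 with a median of 29.8. CC080F1 aPD1 replicate 1 therefore held far more Igkc than the other tumors of the split. In bulk tumors, more B cells and more RNA per B cell cannot be told apart.

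Summed over the 7 B cell members, the 3 tumors had 1530, 1129 and 3923 normalized counts, and the other 20 had 93.2 to 302. Summed over Ccl19, Ccl21a and Glycam1 they had 633, 505 and 696, against 0 to 17.4. No other tumor came near the 3 in either sum. Among the other 20 tumors, CC075F1 aPD1 replicate 1 had the highest B cell sum and CC036F1 isotype replicate 1 the highest stromal sum. Without Igkc, CC036F1 isotype replicate 1 was also the highest of the 20 for the B cell sum, with 178.2 normalized counts.

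**Figure D2:**
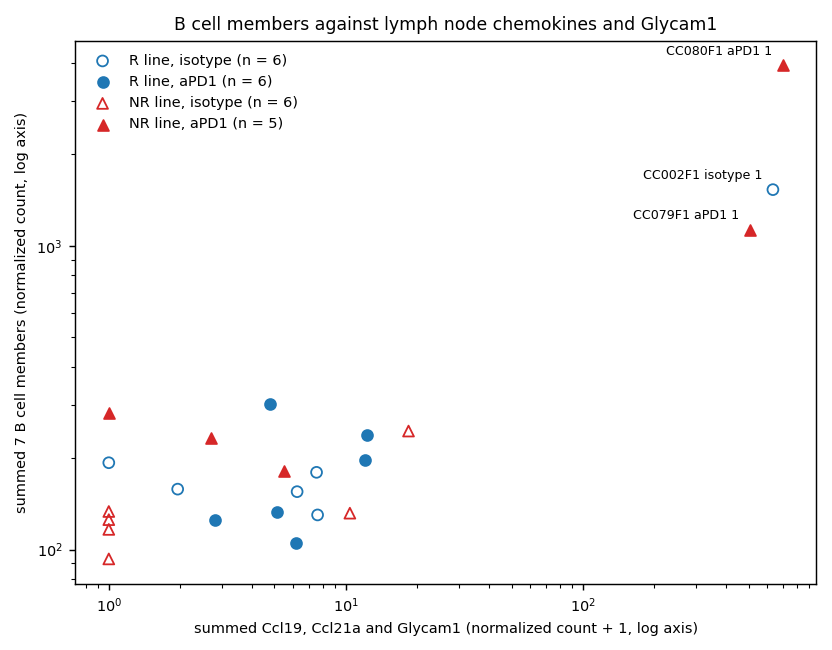
Summed normalized counts of the 7 B cell members (vertical, log axis) against those of Ccl19, Ccl21a and Glycam1 plus 1 (horizontal, log axis), 1 point per tumor, with class by shape and color and aPD1 as filled points. The 3 named tumors sit at 505 to 696 on the horizontal axis and 1129 to 3923 on the vertical, and the other 20 lie at or below 17.4 and 302.

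Of the 3 tumors, 2 had a partner of the same line and antibody, and the partner did not share the signal. In CC002F1 isotype tumors, replicate 1 exceeded replicate 2 by 6.18-fold for Cd79a, 19.5-fold for Ms4a1, 20.1-fold for Fcer2a and 5.46-fold for Cr2. Glycam1 was at least 134-fold and Ccl21a at least 81.1-fold higher, taking 3 counts as the floor for the replicate at 0. In CC079F1 aPD1 tumors, replicate 1 exceeded replicate 2 by 6.81-fold for Cd79a, 40.9-fold for Ms4a1, 41.5-fold for Ccl21a and at least 42.7-fold for Glycam1.

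The median difference over the members between the tumors of a pair was 4.06 on the log2(normalized count + 1) scale in CC002F1 isotype and 3.93 in CC079F1 aPD1. In the other 9 pairs it was 0.34 to 1.93. Over all 16405 genes the median difference was 0.153 in CC002F1 isotype and 0.161 in CC079F1 aPD1, and 0.141 to 0.220 in the other pairs. Both pairs were thus ordinary across the genome and far apart for the members. The members were chosen with the Glycam1 counts of individual tumors known, so this contrast restates that choice. Members had low counts in many tumors, and in the other 9 pairs too they differed more than all genes did. CC080F1 aPD1 replicate 1 had no partner, so its values could not be set against a second tumor.

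Over all tumors, the share of a member's variation that lay within groups, between tumors of the same line and antibody, was 22.2% (Fcer2a) to 60.7% (Cxcr5) with a median of 36.5%. The median over all 16405 genes was 38.9%. CC080F1 aPD1 has 1 tumor, whose whole deviation counts as between groups. Without it the members' median was 51.6%, beside 40.5% for all genes.

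The order of the 12 groups followed the same tumors. For Cr2, the group means ran from 271 normalized counts in CC080F1 aPD1 (n = 1) through 123 ± 120 (SD, n = 2) in CC002F1 isotype and 92.0 ± 105 (SD, n = 2) in CC079F1 aPD1 to 6.01 ± 4.86 (SD, n = 2) in CC075F1 aPD1. For Igkc they ran from 2049 (n = 1), 188 ± 235 (SD, n = 2) and 135 ± 118 (SD, n = 2) in the same groups to 5.17 ± 7.32 (SD, n = 2) in CC080F1 isotype. The SD of the second and the third group was about as large as its mean for both genes, so these groups were not separated from their neighbors beyond the spread of their tumors.

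The members lie on different chromosomes apart from 2 pairs, so position alone does not group them. On GRCm38, Cd79a (chromosome 7, 24897381 to 24902197, plus strand) and Cd22 (chromosome 7, 30865402 to 30880342, minus strand) share a chromosome. Ccl19 (chromosome 4, 42754525 to 42756577) and Ccl21a (chromosome 4, 42772860 to 42773993) are close neighbors on the minus strand. Glycam1 is on chromosome 15 (103562759 to 103565081), Cr2 on chromosome 1 (195136811 to 195176716), Igkc on chromosome 6 (70726435 to 70726966) and Ms4a1 on chromosome 19 (11249675 to 11266241). Fcer2a is on chromosome 8 (3681737 to 3694175) and Cxcr5 on chromosome 9 (44511787 to 44561877). The annotation gives Igkc as an immunoglobulin constant gene and the other 9 as protein-coding. Another annotated gene overlaps Ms4a1, Igkc, Cd22, Ccl19, Ccl21a and Cxcr5, and reads in the overlap may count for either.

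The promoters of members that rose in the same tumors are shown because the genes come from different cell types. RefSeq sequences on GRCm38.p6, from 250 bases before to 50 after the start, matched 7 of the 10 members. Capitals mark matches to 4 short motifs searched on both strands: the octamer ATGCAAAT, the EBF core CCCNNGGG, the E2A box CAGGTG and a kappaB-like GGGNNTTCC. None of these motifs overlapped in the members. A match is a description of letters and not a shown binding site. Cd79a (chr7:24897247-24897546, plus strand) and Cr2 (chr1:195176670-195176969, minus strand) are B cell genes, Ccl21a (chr4:42773942-42774241, minus strand) is a stromal gene, and Glycam1 (chr15:103565032-103565331, minus strand) is a gene of high endothelial cells.
Cd79a: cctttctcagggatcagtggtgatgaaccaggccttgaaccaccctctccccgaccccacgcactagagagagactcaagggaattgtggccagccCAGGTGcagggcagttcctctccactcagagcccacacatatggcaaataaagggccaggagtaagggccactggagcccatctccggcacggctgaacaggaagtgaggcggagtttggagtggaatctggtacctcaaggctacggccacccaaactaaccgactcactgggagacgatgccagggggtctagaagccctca
Cr2: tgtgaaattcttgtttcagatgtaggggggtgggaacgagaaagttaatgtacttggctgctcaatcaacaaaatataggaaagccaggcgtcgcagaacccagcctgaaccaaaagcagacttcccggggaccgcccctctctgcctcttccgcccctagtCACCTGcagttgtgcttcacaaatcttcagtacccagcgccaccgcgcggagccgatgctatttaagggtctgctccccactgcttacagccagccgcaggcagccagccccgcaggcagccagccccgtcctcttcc
Ccl21a: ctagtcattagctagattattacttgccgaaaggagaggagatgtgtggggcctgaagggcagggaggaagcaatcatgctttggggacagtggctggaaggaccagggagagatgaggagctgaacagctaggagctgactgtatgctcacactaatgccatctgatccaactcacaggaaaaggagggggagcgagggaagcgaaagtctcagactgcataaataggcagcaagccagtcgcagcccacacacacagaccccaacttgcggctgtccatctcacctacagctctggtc
Glycam1: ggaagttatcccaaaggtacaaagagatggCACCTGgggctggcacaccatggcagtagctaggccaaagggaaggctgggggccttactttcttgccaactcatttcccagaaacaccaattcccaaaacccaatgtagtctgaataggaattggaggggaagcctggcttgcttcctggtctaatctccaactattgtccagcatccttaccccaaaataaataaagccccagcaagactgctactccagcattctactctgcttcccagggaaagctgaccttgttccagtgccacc

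The Cd79a, Cr2 and Glycam1 promoters each held 1 E2A box, 154, 88 and 220 bases before the start, and the Ccl21a promoter held none of the motifs. The E2A box was also present in 20.2% of all 32851 promoters of this length. The Cd22 promoter held an E2A box and an EBF core, which 13.7% of promoters held, and the Ccl19 promoter held a kappaB-like match, found in 5.82%. No member promoter held the octamer, present in 1.74% of promoters. The 3 promoters listed for Fcer2a held 2 E2A boxes between them, both in the same promoter.

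To find genes with a like pattern, each gene was correlated over the 23 tumors with the mean standardized level of the members on the log2(normalized count + 1) scale. The points share library, host line and depth, and the tumors fall into the 3 high ones and the rest, so these values rank genes and are given with no p. The members themselves had Pearson correlations of 0.701 (Cxcr5) to 0.965 (Glycam1) with this profile, which contains them. Between single members, 40 of 45 pairs had a correlation of at least 0.5 over all 23 tumors, with a median of 0.693. Over the 20 tumors without Glycam1 counts, 1 of 36 pairs did, and the median was 0.03. In these 20 tumors several members had few counts, with Ccl21a at 0 in 11, Ccl19 at 0 in 9 and Fcer2a at 0 in 5. Sampling noise is large at such levels. These correlations therefore cannot tell whether the B cell and stromal genes moved as a set apart from the 3 tumors.

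The gene most like the members was Fcmr, the Fc receptor for IgM, with r of 0.927 and a Spearman rho of 0.674. It had 106, 62.7 and 171 normalized counts in CC002F1 isotype replicate 1, CC079F1 aPD1 replicate 1 and CC080F1 aPD1 replicate 1, against 0 to 8.18 in the other 20. Leaving out the 2 tumors farthest from the median, CC002F1 isotype replicate 1 and CC080F1 aPD1 replicate 1, r was 0.815. Without all 3 it was 0.534.

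Pax5, the transcription factor that fixes B cell identity, came next with r of 0.885 and 223, 192 and 447 normalized counts, against 3.96 to 53.0 elsewhere. Ighd, the heavy chain constant gene of IgD carried by mature naive B cells, had r of 0.870 and 452, 340 and 873 normalized counts, against 1.77 to 26.1. Its r over the 20 other tumors was -0.09. Btla, an inhibitory receptor of B and T cells, had r of 0.864, and H2-DMb2, a chain of the MHC class II peptide-loading complex, 0.847. The highest-ranked genes were mostly B cell genes, and their likeness to the members was lower in each case without the 3 tumors. These tumors set the profile and raised the mean used as the filter, so the ranking adds no support to the pattern.

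The remaining 15 of the 20 genes most like the members had r of 0.700 to 0.825. They included the B cell genes Bank1, Fcrl1, Ralgps2 and Tnfrsf13c, which encodes the receptor for the survival factor BAFF. Bcl11a, Rasgrp2, H2-Oa, Cd24a and Ripor2 were among them too. The immunoglobulin genes Iglc2, Jchain, Ighg1 and Igkv8-21 completed the known genes, with D630044L22Rik and A430078G23Rik. Fcmr and Iglc2 were at most 8.18 and 9.90 normalized counts in the other 20 tumors, so only the 3 tumors carried them past the filter. Igkv8-21 passed it through CC080F1 aPD1 replicate 1, with 300 normalized counts there and 0 in those 20. Over all 16406 genes ranked, the median r was 0.01 and the highest 1% began at 0.455.

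**Figure D3:**
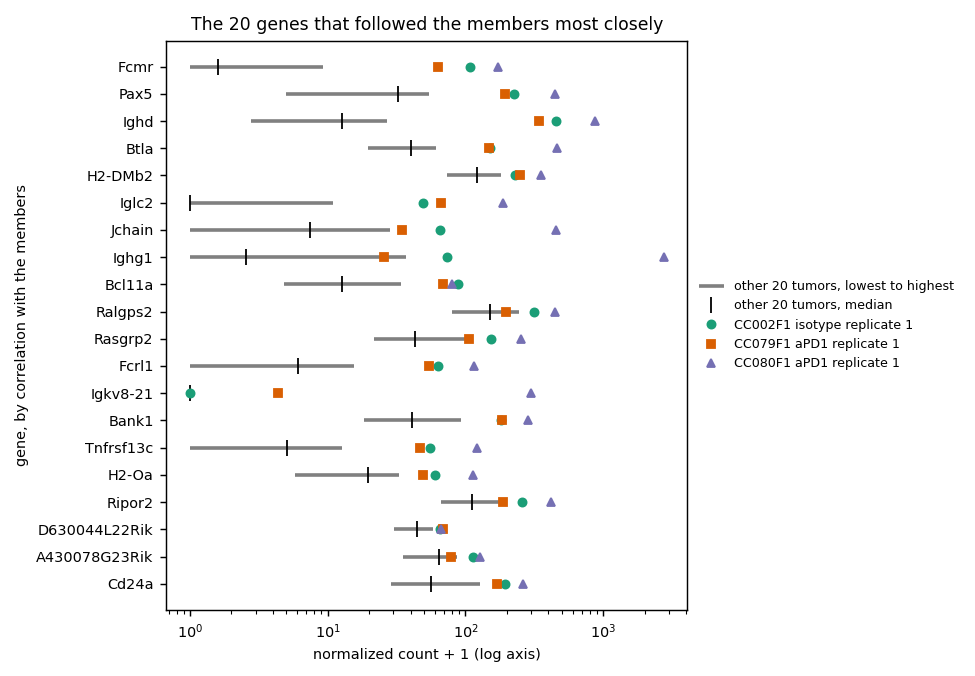
Normalized counts plus 1 (log axis) of the 20 genes outside the members with the highest correlation to them, ordered from the top. Grey lines span the other 20 tumors with their median as a black mark, and colored points are the 3 tumors with Glycam1 counts. Fcmr, Pax5, Ighd and Btla lie apart from the grey lines in all 3, whereas Igkv8-21 is high in CC080F1 aPD1 replicate 1.

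Other B cell markers behaved in 2 ways. Of 18 listed, 10 had these 3 tumors as the highest, among them Cd79b, Pax5, Blk, Bank1, Fcrl1, Fcmr, Tnfrsf13c, Ighd and Siglecg. Blk, a B cell kinase, had 52.5, 21.2 and 86.1 normalized counts, against 0 to 5.13 in the others. Cd79b, the partner chain of Cd79a, had 196, 142 and 364, against 0 to 99.2. The other 8 markers had at least 1 further tumor within or above the range of the 3. Cd72, also expressed outside B cells, was highest in CC001F1 aPD1 replicate 2 with 5419 normalized counts, and Ebf1, which stromal and fat cells express too, was between 669.6 and 990.003 in the other 20 tumors. The median r of the measured list with the members' profile was 0.639 over 17 genes.

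Some immunoglobulin genes, Ighg1 above all, separated CC080F1 aPD1 replicate 1 from the other 2. Ighg1, the heavy chain of IgG1, had 72.3 and 24.6 normalized counts in CC002F1 isotype replicate 1 and CC079F1 aPD1 replicate 1, but 2747 in CC080F1 aPD1 replicate 1. The other 20 tumors had 0 to 36.2. Ighg2b had 38.6, 6.78 and 311, with up to 122 elsewhere, and Jchain, which joins secreted IgM and IgA, had 64.4, 33.9 and 457 against 0 to 27.4. Mzb1, a chaperone of antibody-secreting cells, had 21.8, 7.63 and 95.5 against 0 to 10.2. Other genes of the list did not separate it. Ighg2c had 30.7, 5.08 and 90.8, with up to 115 elsewhere, and Ighg3 had 25.8, 0 and 10.3. Igha had 3.96, 3.39 and 6.55, with up to 32.2 elsewhere. Xbp1, Sdc1, Prdm1, Irf4 and Derl3 in CC080F1 aPD1 replicate 1 lay within the range of the other 20 tumors. Tnfrsf17, another plasma cell marker, was at 0 to 1.87 in the 3 tumors. Jchain was the 1 of 13 listed plasma cell genes with the 3 tumors as its highest. Ighg1 counts per Igkc count were 0.204, 0.113 and 1.34.

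Ratios among the B cell members were much closer. Ms4a1 counts per Cd79a count were 0.936, 1.2 and 1.22 in the same order, those of Fcer2a 0.705, 0.733 and 0.792, and those of Cr2 0.955, 1.09 and 0.823. Igkc per Cd79a was 1.62, 1.43 and 6.23, so the excess of CC080F1 aPD1 replicate 1 lay in Igkc. Glycam1 per Ccl21a was 1.65, 1.55 and 0.866.

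Many kappa variable genes were used in these tumors. Of 55 Igkv genes in the table, 21, 23 and 41 had at least 3 counts in CC002F1 isotype replicate 1, CC079F1 aPD1 replicate 1 and CC080F1 aPD1 replicate 1. No other tumor had more than 7. The leading gene took 9.24%, 13.02% and 25.1% of the Igkv counts, and in CC080F1 aPD1 replicate 1 it was Igkv8-21. Short variable genes resemble each other, so the split of reads among them is uncertain.

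Of the 7 listed germinal center genes, some were at or near 0 and others were expressed in every tumor. Rgs13, a regulator of G protein signaling in germinal center B cells, had 7.92, 1.69 and 0 normalized counts in the 3 tumors, and Mef2b had 1.98, 2.54 and 0. Bcl6, a repressor that other cells express too, was at 1109 to 1422 in the 3 tumors, within the 779 to 1755 of the rest. None of the 7 genes had the 3 tumors as its highest.

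The high endothelial venule list was mixed as well. Chst4, a sulfotransferase of high endothelial cells, was at 0, 0 and 0.936 normalized counts in the 3 tumors, against 0 to 10.3 in the other 20. Madcam1 was at 7.92, 0 and 0.936, and Fut7 at 4.95, 9.32 and 30.9 against 0 to 56.0 elsewhere. Gcnt1, B3gnt3 and Chst2, which add or sulfate sugars in many cell types, were higher, at 2305 to 2652, 1483 to 1565 and 855 to 1091, each within the range of the other 20. None of the 7 listed genes had the 3 tumors as its highest, unlike Glycam1. Glycam1 is also known from lactating mammary gland. The milk protein genes Csn2, Csn1s1 and Lalba were at 0 to 4.24 in the 3 tumors, and Csn3 at 37.3 to 49.6, within the 0 to 162 of the rest.

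Of the lymphoid stroma list, 1 of 12 genes had the 3 tumors as its highest: Enpp2, which makes a lipid that aids lymphocyte entry, with 125, 164 and 211 normalized counts against 9.44 to 99.8. Cxcl13, the ligand of Cxcr5, had 52.5, 43.2 and 128, below the 2507 of CC001F1 aPD1 replicate 2. Lyve1, a marker of lymphatic vessels and some macrophages, had 331, 177 and 441, and reached 339 in CC080F1 isotype replicate 1. The defining lymphatic gene Prox1 was at 4.95, 5.08 and 9.36, against 0 to 10.2 with a median of 1.17 in the other tumors. Summed over the 7 listed lymphatic genes, the 3 tumors had 608, 462 and 707 normalized counts, against 104 to 554. These sums ranked 2, 6 and 1 among all tumors. None of the 7 genes had the 3 tumors as its highest. Cd209b, a receptor of sinus macrophages, had 44.6, 50.8 and 119, with up to 53.6 in CC002F1 aPD1 replicate 1.

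The receptor of the stromal chemokines was less tied to the 3 tumors. Ccr7, the receptor of Ccl19 and Ccl21a, had 136, 99.1 and 216 normalized counts against 13.9 to 171. The T cell list summed to 1192, 615.2 and 1158, ranks 9, 17 and 10 of the 23 tumors. The macrophage list ranked 21, 17 and 12.

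Fat cell markers moved with the members. Adipoq, the hormone adiponectin, had 127, 87.3 and 123 normalized counts in the 3 tumors against 0 to 70.8, and Plin1, a coat protein of lipid droplets, 57.4, 72.03 and 105 against 0 to 34.9. Both had the 3 tumors as their highest, as 2 of the 6 listed genes. The list summed to 2068, 2463 and 1582, against 104 to 1588 in the other 20, and CC080F1 isotype replicate 1, at the upper end, had Glycam1 at 0. The skeletal muscle list went another way, with sums of 23.6, 19.6 and 274, against 21.9 to 21510 elsewhere. The part of tissue around the tumor in the members' levels was not tested.

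**Figure D4:**
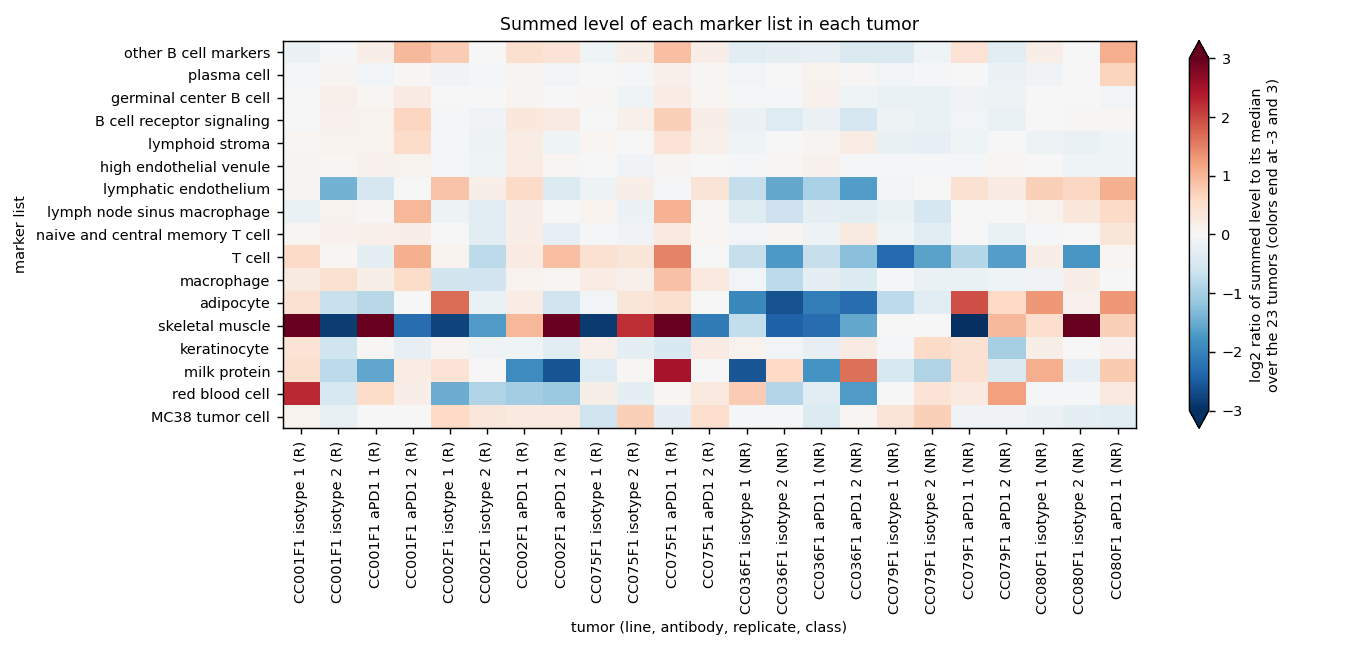
Summed level of each marker list in each tumor, as the log2 ratio to the median of that list over the 23 tumors, with colors ending at -3 and 3. The adipocyte list is high in the 3 tumors with Glycam1 counts and in CC080F1 isotype replicate 1, and the skeletal muscle list is high in other tumors.

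The first comparison the design implies asked whether the members differed between R and NR hosts before treatment. In isotype tumors, Cd79a had a lowest, median and highest level of 19.3, 32.3 and 218 normalized counts in R lines and of 5.12, 13.2 and 37.1 in NR lines, so the classes overlapped. Its fitted log2 difference was 1.77 ± 0.61 (SE) with a DESeq2 adjusted p of 0.0618. Cr2 differed by 1.53 ± 0.62 with a DESeq2 adjusted p of 0.124. None of the 10 members passed the threshold of 0.05, while 5.53% of the 14995 genes tested did. Of the members, 3 had an adjusted p. DESeq2 gave no p to Ms4a1, Igkc, Fcer2a, Ccl21a and Glycam1, because 1 tumor of the comparison stood too far from the rest, and no adjusted p to Ccl19 and Cxcr5 for low counts. At an unadjusted p under 0.05 there were 2 members in DESeq2, and 7 in edgeR, which called none after adjustment. All 10 fitted differences were above 0. Without CC002F1 isotype replicate 1, 5 of 9 were.

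The comparison of R and NR lines in aPD1 tumors was the one used to choose members, and it is described only. Cr2 ran from 2.57 to 16.9 with a median of 9.38 in R aPD1 tumors, and from 14.97 to 271 with a median of 17.9 in NR aPD1 tumors. Igkc ran from 16.7 to 128 with a median of 60.8 in R and from 51.5 to 2049 with a median of 160 in NR. Cd22 ran from 41.0 to 116 in R and from 76.2 to 529 in NR, and every member overlapped between the classes. The fitted log2 differences were -3.0 ± 0.95 (SE) for Cd79a, -3.54 ± 1.21 for Ms4a1, -3.0 ± 0.97 for Igkc, -1.48 ± 0.44 for Cd22, -3.32 ± 0.72 for Cr2 and -4.17 ± 1.39 for Fcer2a. With Glycam1, 7 members were past the threshold and lower in R, beside 1.99% of the 17156 genes tested that were lower and 7.93% in either direction. Nothing is read from this count, since values of this comparison chose the members. Both tumors with Glycam1 counts in this comparison were NR tumors. Without them no member passed, of the 5 that had an adjusted p. The differences were then 0.88 ± 0.84 for Ms4a1, 0.64 ± 1.23 for Fcer2a and -0.67 ± 0.58 for Cr2.

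The p-values here and below measure the spread between tumors, and tumors of a line entered the comparisons of R with NR lines as independent. The comparison of aPD1 with isotype in NR lines asked what changed 48 h after the antibody. Levels of the members in these same tumors had been seen before this test and those that follow. Igkc ran from 0 to 67.4 with a median of 11.4 normalized counts in NR isotype tumors and from 51.5 to 2049 in NR aPD1 tumors. Cr2 differed by 2.02 ± 0.56 (SE) on the log2 scale with a DESeq2 adjusted p of 0.211, and Cd22 by 1.48 ± 0.58 with a DESeq2 adjusted p of 0.695. None of the 10 members passed the threshold, and 0.0448% of the 24552 genes tested did. At an unadjusted p under 0.05 there were 7 members in DESeq2 and 8 in edgeR, which called none. Without the 2 tumors with Glycam1 counts, 1 member had an unadjusted p under 0.05, Igkc, with a difference of 1.74 ± 0.72 and a DESeq2 adjusted p of 0.345.

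In R lines, aPD1 tumors had less Cr2 than isotype tumors. Its levels ran from 9.21 to 208 with a median of 26.3 normalized counts under isotype and from 2.57 to 16.9 with a median of 9.38 under aPD1, so they overlapped. The difference was -2.05 ± 0.55 (SE) with a DESeq2 adjusted p of 0.00968. Glycam1 also passed, but it was at 0 in every R tumor except CC002F1 isotype replicate 1, so its call came from 1 tumor. Cd79a, with -1.88 ± 0.64 and a DESeq2 adjusted p of 0.0607, did not pass. Thus 2 members passed, both lower, beside 0.408% of the 15701 genes tested that were lower and 5.26% in either direction. Levels in these tumors helped to choose the members, so this is a description and nothing is read from the count. Without CC002F1 isotype replicate 1 none of the 4 members with an adjusted p passed. Cr2 then had -1.40 ± 0.50 with a DESeq2 adjusted p of 0.0936. edgeR called none with all tumors, and 3 at an unadjusted p under 0.05.

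The difference of the aPD1 effect between R and NR lines was fitted as an interaction. It contains the comparison that chose the members, so it is a description too. Cr2 had a log2 difference of effects of -4.04 ± 0.84 (SE), lower in R. Cr2 and Glycam1 were past the threshold, where 0.0342% of the 26342 genes tested were, and nothing is read from this count. Without the 3 tumors with Glycam1 counts, Cr2 had -1.63 ± 0.75 and no member was past the threshold. The same was so without CC002F1 isotype replicate 1 alone. These comparisons share tumors, so they do not add to each other.

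**Figure D5:**
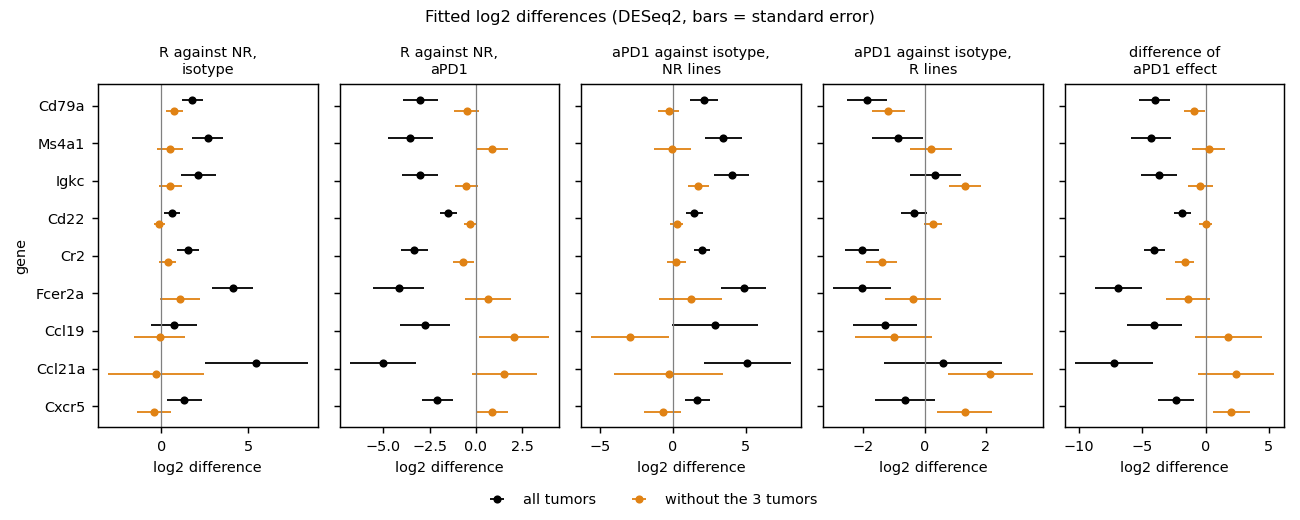
Fitted log2 differences of 9 members in 5 comparisons (horizontal, a scale of its own in each panel), with bars of 1 standard error, from all tumors (black) and without the 3 tumors with Glycam1 counts (orange). Glycam1 is left out because its fitted difference has no bound. The black points lie far from 0 in most panels, and the orange points are closer to 0 for Cd22 and Cr2.

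Differences among the 6 host lines over all tumors were tested with antibody as a term. Of the 10 members, 1 passed, Cr2, with a DESeq2 adjusted p of 0.0471, beside 16% of the 19192 genes tested. Without the 3 tumors with Glycam1 counts none passed, and Cr2 had a DESeq2 adjusted p of 0.948.

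Related lists were read beside the members in the same fits. In aPD1 tumors, the comparison that chose the members and so a description here too, 5 of 18 other B cell markers were past the threshold and lower in R lines (among them Pax5, Spib, Ighd and Siglecg) and 1 was higher (Cd72). Their median log2 difference was -1.60, beside -0.02 over all genes. Of the 16 genes of B cell receptor signaling, most of them also used by myeloid cells, 10 were past it and higher in R lines and 1 lower, with a median of 0.71. Over all genes tested, 5.94% were higher in this comparison. None of the other B cell markers passed in isotype tumors, where their median was 0.89 beside 0.00 over all genes. Of the adipocyte genes, Adipoq was lower in R lines under aPD1, 1 of 6, with a median of -1.94. In isotype tumors, 3 of 12 ligand and receptor partners of the members were higher in R lines, among them Cxcl13 and Ltb, which helps to form the stroma of lymphoid organs. Over all genes tested there, 2.29% were higher. The only plasma cell gene that passed there was Irf4, 1 of 13, also higher. In R lines, Cd72 was the 1 of 18 other B cell markers that rose under aPD1, and none fell. Of all genes tested, 4.85% rose, so this count was near the background. None of the 18 passed in NR lines, where their median was 1.66, or for the difference of the aPD1 effect, with a median of -1.61.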

How the data were processed

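RNA of 23 bulk MC38 tumors was sequenced after poly(A) selection. The authors deposited expected counts per gene, estimated by allocating reads aligned with Bowtie 1.2.3 to transcriptomes of the Collaborative Cross founder strains with GBRS, built on GENCODE annotation. The values were not normalized, 16.9% were not whole, and strandedness is not given in the sources used here. They were rounded to whole numbers. Columns were matched to tumors by title, and 26681 of 26869 genes matched a symbol.

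Size factors and tests came from DESeq2 1.42.0 with default options, on genes with at least 5 counts summed over the fit, in R 4.3.3. Adjusted p-values (Benjamini-Hochberg) cover all genes tested, with a threshold of 0.05. Aside from the comparisons of R with NR lines, fits had host line or antibody as a term. The fits were tested on simulated data. Levels are counts divided by size factors, and logarithms used an added 1. Alternatives were edgeR 4.0.16, TMM scaling, filters, deep libraries (at least 30000000 counts), a replicate term and each tumor left out.

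Same-numbered tumors of a line under both antibodies were compared to see whether the numbers pair them. The correlations of their deviations from the group means were -0.12 to 0.22. The value that pairing would give is not known, so this does not decide it. The main fits took these tumors as unpaired. Tumors of a group differed by more than sampling noise, with chi-square statistics of 9.50 to 140.6 for each degree of freedom. Genes named are the 10 members, the 20 genes most like them and listed markers. Genes in the closing observations were chosen after their values were seen. Members and lists were chosen with earlier results of these data known. Promoters are RefSeq sequences on GRCm38.p6. Some listed genes are counted with their list, and their values are not reported here.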

Additional observations from a re-analysis of the deposited data

Results flagged for a closer look

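Within the 6 R isotype tumors, CC002F1 isotype replicate 1 stood apart from the other 5 by Dixon's test for 7 members. Its normalized counts were 218 for Cd79a, 204 for Ms4a1, 354 for Igkc, 313 for Cd22, 154 for Fcer2a, 232 for Ccl21a and 383 for Glycam1. Among NR isotype tumors, Cr2 stood apart in CC080F1 isotype replicate 2 with 41.0 normalized counts. Ccl21a did so in CC079F1 isotype replicate 1 with 5.16, a value of few counts. Of 40 sets of a member and an arm, 9 had such a tumor. Chance gives about 1 in 20 sets, but the members were chosen with the Glycam1 counts of CC002F1 isotype replicate 1 known, so its 7 values restate that choice and support nothing.

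The fitted difference of the aPD1 effect between R and NR lines was past the threshold for Glycam1 (DESeq2 adjusted p = 0.00513) and Cr2 (DESeq2 adjusted p = 0.0109). Both values rest on tumors whose levels led to the choice of the members, so they are given as a description. Neither call was made by edgeR. Without the 3 tumors with Glycam1 counts, Glycam1 had no counts left to test and Cr2 had a DESeq2 adjusted p of 0.901.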

How the results depend on the processing

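Counts of members past the threshold moved with single tumors. For R against NR lines under aPD1, the count of 7 became 1 in edgeR and 2 with a replicate block. Each tumor left out in turn gave 0 to 8, with 0 without CC080F1 aPD1 replicate 1 and 1 without CC079F1 aPD1 replicate 1. In these fits, in that order, only 4 and 1 of the 10 members had an adjusted p. All 10 fitted differences stayed lower in R in both, so these counts also reflect members left without an adjusted p. For aPD1 in NR lines, the count of 0 became 3 in deep libraries and 1 with the block (Igkc), and 0 to 2 with a tumor left out. In R lines, the count of 2 became 0 in edgeR, 1 under the stricter filter and 0 to 3 with a tumor left out. For the difference of effects, 2 became 0 in edgeR and 0 to 4 with a tumor left out. Both counts were 0 without CC002F1 isotype replicate 1. For host line, 1 became 0 in edgeR and in deep libraries, and 0 to 3 with a tumor left out. In isotype tumors, leaving out a tumor gave 0 to 1. The replicate block left the counts of the other comparisons as they were.

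Leaving out the 3 tumors with Glycam1 counts together was chosen after seeing the data. It gave 0 members in every comparison. Of the 9 members fitted, only 4 had an adjusted p in isotype tumors, 5 in aPD1 tumors, 4 in NR lines and 4 in R lines. It turned the aPD1 differences between R and NR lines of Ms4a1 to 0.88 and of Fcer2a to 0.64. The within-group share of variation was 19.3% in deep libraries and 22.5% to 51.6% with a tumor left out. Of the 20 genes most like the members, 5 were shared with Spearman ranks, 8 with deviations from group means, 11 at a mean of at least 50, 0 without the 3 tumors, and 10 to 20 with a tumor left out. The cause of these changes was not tested. Groups of 2 tumors limit every comparison, and at 14494000 to 71868300 counts a library, members at 0 may lie below detection.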

Other observations

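Genes outside the lists that also had their 3 highest levels in CC002F1 isotype replicate 1, CC079F1 aPD1 replicate 1 and CC080F1 aPD1 replicate 1 were picked after their values were seen. Some are known from fat tissue. Pck1, which makes phosphoenolpyruvate for glyceride synthesis, had 179, 198 and 92.7 normalized counts in these tumors, against at most 55.6 in the other 20. Ces1d, a carboxylesterase, had 76.3, 64.4 and 45.9, against at most 15.4. Cdo1, which oxidizes cysteine, had 90.1, 96.6 and 48.7, against at most 37.0. Plin4, a lipid droplet protein, had 169, 236 and 316, against at most 155.

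Others are known from B cells. H2-Ob, a chain of the MHC class II modulator H2-O, had 236, 234 and 397 normalized counts, against at most 149 in the other tumors. Ly6d, expressed on B lineage cells and some epithelia, had 82.2, 35.6 and 74.9, against at most 20.8.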
